A study of Homo sapiens with 12 samples.

Results

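The genes described here encode the chains of the collagens and the laminins, the proteins that form most of the extracellular scaffold and of the basement membrane. They were taken by name: 54 gene symbols in the tables have the form of a collagen chain (42, such as COL4A1) or a laminin chain (12, such as LAMB3), and the 39 with a value of at least 10 in 3 or more of the 12 libraries were kept. These 39 chains, 27 collagen and 12 laminin, are 39 of the 15957 genes that passed the same minimum. The other 15 were COL2A1, COL3A1, COL4A6, COL5A3, COL6A6, COL9A1, COL10A1, COL11A1, COL11A2, COL14A1, COL19A1, COL23A1, COL25A1, COL26A1 and COL28A1. Just inside the minimum, LAMC3 reached 10 in 4 libraries and COL24A1 and COL4A5 each in 5. Just outside it, COL3A1, COL19A1, COL26A1 and COL28A1 each reached 10 in 1 library, with highest values of 19.96, 10.7, 12.2 and 16.9.

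RNA was sequenced from MDA-MB-231, a human triple-negative breast cancer cell line, carrying glucocorticoid receptor of the normal sequence (WT-GR) or with a serine that can be phosphorylated replaced by alanine (S134A-GR). All cells were starved of serum for 18 h in IMEM with 1% DCC and then received vehicle or 1 µM dexamethasone (Dex), a synthetic glucocorticoid, for 6 h. The 4 groups, WT-GR vehicle, WT-GR Dex, S134A-GR vehicle and S134A-GR Dex, had 3 libraries each. The labels do not say how the cells were made, whether each genotype is 1 clone, or whether replicates were grown separately, so p-values measure the spread between these libraries, which may be technical. The receptor's change and any other difference between the WT-GR and S134A-GR cells cannot be told apart. A lower value in bulk RNA can mean fewer cells that make a transcript or less of it per cell, and these cannot be told apart either.

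Collagens are trimers of chains wound into a triple helix. Fibrillar collagens form the fibers of the interstitial matrix, type IV collagen forms the sheet of the basement membrane, type VI forms beaded filaments, and transmembrane collagens such as type XIII and type XVII stay anchored in the cell surface. Laminins are cross-shaped trimers of 1 alpha, 1 beta and 1 gamma chain that polymerize on the cell surface, and laminin-332, which holds LAMA3 and LAMB3, anchors epithelial cells through integrins and is known as a matrix that carcinoma cells deposit and migrate on. Glucocorticoids are known to lower collagen synthesis in skin and fibroblasts.

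Values are normalized read counts, a library's read count divided by its size factor. The recovered depth was 56.4 to 100.6 M reads per library, lowest in replicate 1 of both WT-GR groups. Of the markers of the line, the mesenchymal VIM was at 366469 to 431198 and CD44 at 28862 to 44619. The receptors that define a triple-negative line were at 0 to 5.66 for ESR1 and 8864 to 12005 for ERBB2, and PGR was not analysed here. The epithelial markers were uneven: CDH1 was at 0 to 17.1, EPCAM at 315 to 1093, KRT19 at 669.9 to 4456 and KRT18 at 27987 to 41736. Among 7 fibroblast markers, whose cells would bring collagen transcripts of their own, DCN, LUM, FAP and THY1 were at 0 to 14.002, with FAP at 0 throughout WT-GR vehicle and LUM throughout both S134A-GR groups. PDGFRA was at 1.89 to 18.0. ACTA2 was at 54.8 to 73.3 in WT-GR vehicle and 94.3 to 129.8 in S134A-GR vehicle. With Dex it was at 39.9 to 78.5 in WT-GR and 111 to 125 in S134A-GR cells, whereas PDGFRB lay lower in S134A-GR libraries in both treatments. The sum of the list was 2190 to 2273 in WT-GR vehicle, 2352 to 2977 in WT-GR Dex, 1946 to 2090 in S134A-GR vehicle and 1765 to 1974 in S134A-GR Dex, with PDGFRB alone at 1625 to 2871. Of the 4 fibroblast markers tested, PDGFRB rose with Dex in WT-GR cells (0.28, limma adjusted p = 0.0166). DCN rose in S134A-GR cells, from 0 to 1.89 without Dex to 13.2 to 14.002 after it (limma adjusted p = 0.0325). DCN was tested only through Dex libraries, where it is high, and this p-value depends on that choice. Among these 4 markers 1 was higher and 1 lower in S134A-GR cells in each treatment. Of 4 epithelial markers, 3 were lower in S134A-GR vehicle and 4 in S134A-GR Dex than in WT-GR cells, with sums of 39580 to 44140, 38050 to 46090, 31250 to 33100 and 28970 to 32050 in the same order of groups and none of the 4 at 0 throughout a group. Of 4 endothelial markers, Dex raised PECAM1 and CDH5 and lowered VWF in WT-GR cells and raised PECAM1 and lowered VWF in S134A-GR cells. In each treatment 2 of them were lower in S134A-GR cells, and the sum of the list was 1905 to 2049, 2857 to 3403, 1464 to 1583 and 2108 to 2357. Of 4 blood markers, 2 were found, with sums of at most 62.9, and the 1 tested, CD14, was lower in S134A-GR cells (-2.58 in vehicle, limma adjusted p = 0.00571). Of all genes, 27.9% and 15.7% were called for Dex in WT-GR and S134A-GR cells, and 50.5% and 49.7% between the genotypes in vehicle and in Dex. The part of these markers in the results was not tested.

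Per kilobase of the longest coding transcript, the most abundant chain in WT-GR vehicle was LAMB3 at 12180 ± 94.6 (mean ± SD, n = 3), followed by the transmembrane chain COL13A1 at 9363 ± 135, the type VI chains COL6A2 and COL6A1, and LAMB2, LAMB1, COL4A2, LAMC1 and LAMA5. In S134A-GR vehicle LAMB3 was first again, at 19790 ± 268, and COL13A1 held rank 5. The fibrillar chains common in fibroblasts were low: COL1A1 was at 171 ± 29.5, COL1A2 at 3.67 ± 0.636 and COL3A1 under the minimum, whereas COL5A1 was at 2996 ± 272. As a share of all values summed, the 27 collagen chains took 0.205% ± 0.00797 in WT-GR vehicle, 0.201% ± 0.0119 in WT-GR Dex, 0.184% ± 0.00254 in S134A-GR vehicle and 0.170% ± 0.00877 in S134A-GR Dex (SD, n = 3). The 12 laminin chains took 0.217% ± 0.0158, 0.202% ± 0.00930, 0.284% ± 0.00878 and 0.252% ± 0.00588 in the same order, so that the S134A-GR libraries all lay above the WT-GR libraries for laminins and below them for collagens.

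**Figure D1:**
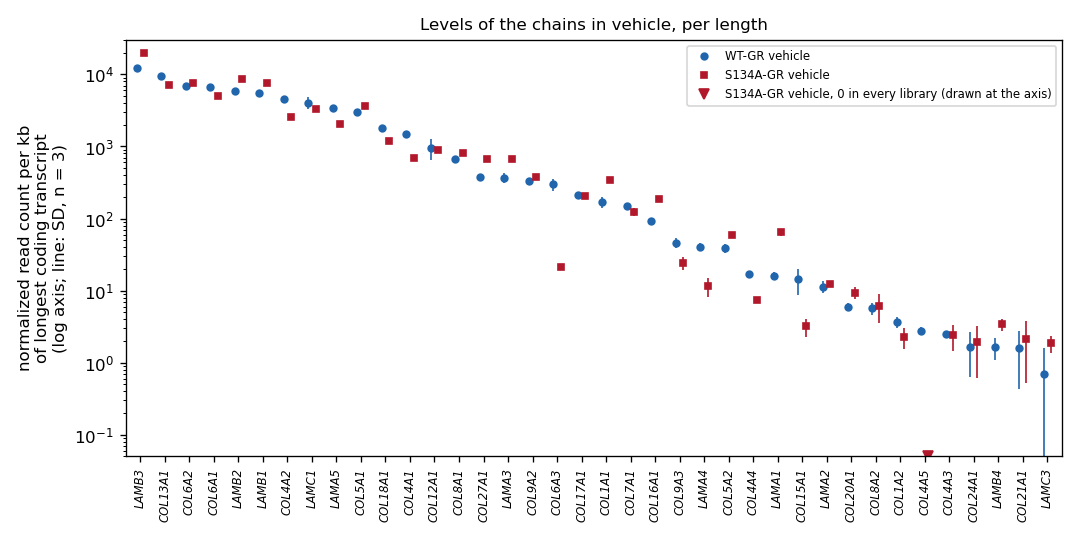
Levels of the chains in vehicle, as normalized read count per kilobase of the longest coding transcript on a log axis, ordered by WT-GR (circles) with S134A-GR beside it (squares); points are means of 3 libraries and lines the SD. The order runs from LAMB3 on the left to LAMC3 on the right, COL6A3 lies far lower in S134A-GR, and COL4A5, at 0 in every S134A-GR library, is drawn as a triangle at the axis.

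The changes of the 39 chains with Dex were small and went both ways. In WT-GR cells 12 of 39 chains changed by limma at an adjusted p under 0.05, 6 up and 6 down, against 27.9% of all genes tested (13.9% up, 14% down), and the median log2 change of the chains was -0.05 beside -0.02 for all genes. In S134A-GR cells 10 of 39 changed, 3 up and 7 down, against 15.7% of all genes (7.99% up, 7.76% down), with a median of -0.11 beside -0.02. None of these changes reached a log2 size of 1. COL4A1, COL6A3 and COL8A1 rose and COL7A1, COL13A1, COL16A1, COL17A1, COL27A1 and LAMB3 fell in both genotypes: these 9 are 75% of the chains called in WT-GR cells and 90% of those called in S134A-GR cells. The share of calls that the genotypes have in common was not computed over all genes, so it cannot be read as particular to the chains. All 3 libraries with Dex lay outside the range of the vehicle libraries for 11 of 39 chains in WT-GR cells, 5 above and 6 below (35.1% of all genes, 16.7% above and 18.3% below), and for 19 of 39 in S134A-GR cells, 7 above and 12 below (38.6%, 18.2% and 20.4%).

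The difference between the genotypes was larger. In vehicle 25 of 39 chains differed, 12 higher and 13 lower in S134A-GR cells, against 50.5% of all genes (23.8% higher, 26.7% lower), and in Dex 27 of 39, 13 higher and 14 lower, against 49.7% (23.4% and 26.3%). The median log2 difference of the chains was 0.13 in vehicle and -0.04 in Dex, beside 0.01 for all genes in both. Between vehicle and Dex, 24 calls were shared in the same direction, 96% of the former and 88.9% of the latter. Here too the shared calls were not counted over all genes. Of the 12 laminin chains 6 were higher and 2 lower in S134A-GR vehicle, and of the 27 collagen chains 6 were higher and 11 lower. In Dex these counts were 7 and 2 for laminins and 6 and 12 for collagens. The 3 S134A-GR libraries lay wholly outside the WT-GR range for 30 of 39 chains in vehicle (64.3% of all genes, 31.5% above and 32.7% below) and 27 of 39 in Dex (52.4%, 25.3% and 27.1%).

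**Figure D2:**
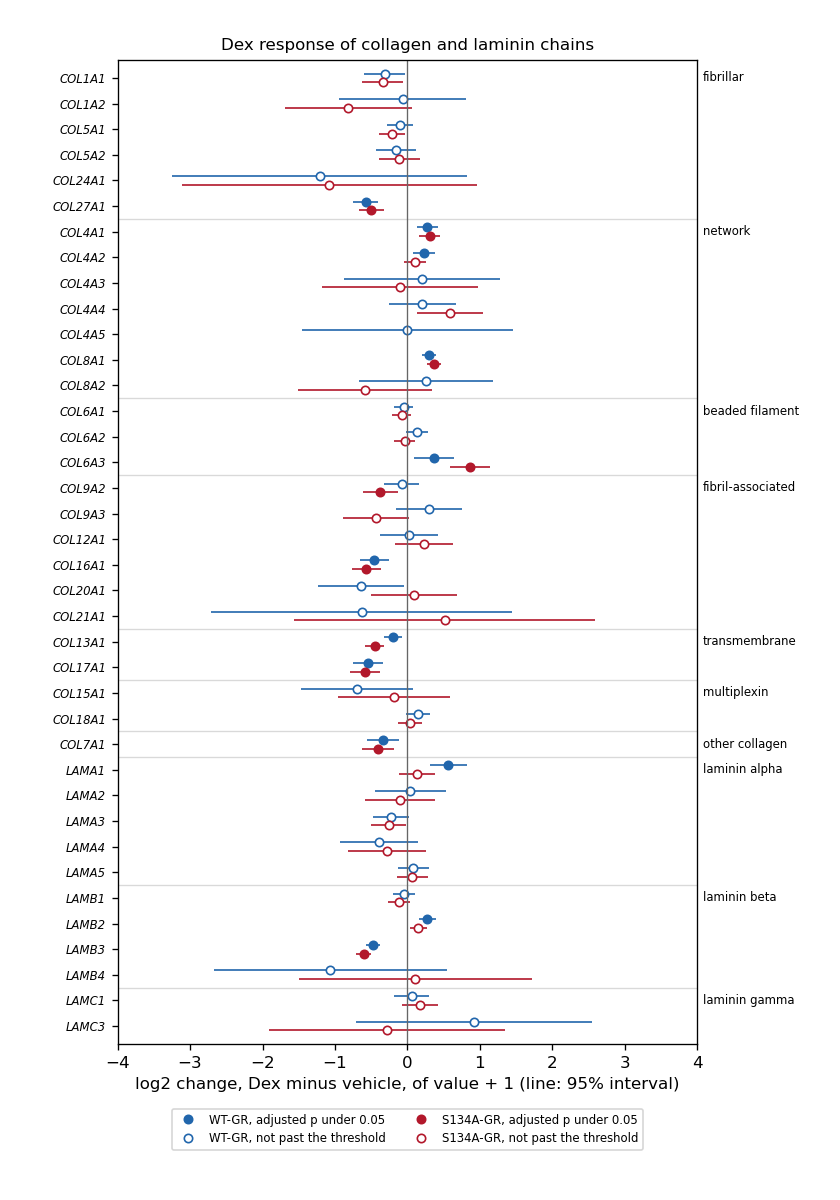
Log2 change with Dex of value + 1, with its 95% interval, for each chain in WT-GR (blue) and S134A-GR (red) cells; filled points passed an adjusted p under 0.05 by limma. Most points lie within 0.6 of 0 and the pairs lie close together, while the wide intervals belong to chains with few reads; COL4A5 in S134A-GR cells, at 0 throughout, is not drawn.

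LAMB3, the beta chain of laminin-332, fell with Dex in both genotypes, with the smallest adjusted p of any chain in each. It was counted at 52716, 51974 and 52635 in the WT-GR vehicle libraries and at 40242, 36536 and 36723 with Dex. In S134A-GR cells it was at 84293, 84833 and 86508 in vehicle and 53294, 57115 and 57703 with Dex. No Dex library reached its vehicle group, and S134A-GR cells with Dex came down to just above the level of untreated WT-GR cells. The log2 change was -0.47 ± 0.05 (SE) for WT-GR and -0.61 ± 0.05 for S134A-GR cells (limma adjusted p = 3.93e-06 and 3.05e-07), and the genotype difference was 0.70 untreated and 0.57 with Dex (limma adjusted p = 5.21e-08 and 3.71e-07). LAMA3, the alpha chain of the same trimer, was at 4473, 3984 and 3318 in untreated and 3431, 2821 and 3812 in Dex-treated WT-GR libraries. In S134A-GR cells LAMA3 was at 7156, 6573 and 7765 untreated and 5873, 6124 and 5954 with Dex. Every S134A-GR library was above every WT-GR library, a log2 difference of 0.88 untreated and 0.85 with Dex (limma adjusted p = 2.53e-05 and 3.61e-05). Its log2 change with Dex was -0.23 for WT-GR and -0.26 for S134A-GR cells, and neither passed the threshold although the S134A-GR groups did not overlap (limma adjusted p = 0.151 and 0.163); in WT-GR cells the change was called without vehicle replicate 3 (-0.34) or without Dex replicate 3 (-0.32).

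The stretches upstream of LAMA3 and LAMB3 are shown because, among the chains with start windows, the AP-1 motif was found at these genes; it was in 2 of the 36 windows, no larger a share than among all genes' windows. LAMB3 has 3 annotated starts in the table, and of these the one shown holds the motif and the other two do not. AP-1, the factor made of Fos and Jun proteins, binds TGANTCA. Each line is the 150 bases before an annotated start, 5′ to 3′ on the gene's strand, from RefSeq on GRCh38.p14, with that motif in capitals. The first is chr18:23872870-23873019 (plus strand, inside the gene LAMA3, chromosome 18, 23689443 to 23956222) and the second chr1:209651375-209651524 (minus strand, inside the gene LAMB3, chromosome 1, 209614870 to 209652466).
LAMA3: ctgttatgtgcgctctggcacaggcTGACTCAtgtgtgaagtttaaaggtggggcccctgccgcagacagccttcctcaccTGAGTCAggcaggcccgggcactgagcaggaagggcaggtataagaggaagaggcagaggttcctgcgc
LAMB3: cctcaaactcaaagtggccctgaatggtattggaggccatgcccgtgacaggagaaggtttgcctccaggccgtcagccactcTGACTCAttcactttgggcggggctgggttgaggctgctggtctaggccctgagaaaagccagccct
In the LAMA3 stretch the matches begin at positions -125 and -69 and in the LAMB3 stretch at -67, with the start site at 0. Windows from 250 bases before to 50 after a start were searched on both strands; the table held 36 windows of 29 of the 39 chains. TGANTCA was in 7.71% of all 35116 windows in the table. The full glucocorticoid response element, AGAACA, any 3 bases and then TGTTCT, was in 1 window of 35116, which belonged to no chain, and its outer 6 letters AGAACA were in 14.8% of windows, among them windows of COL5A1 and LAMB3. A match describes the letters and not a bound site, and neither AP-1 nor receptor binding was measured here.

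LAMA1 and LAMB2 went the other way from LAMB3 and rose with Dex in WT-GR cells. LAMA1, the alpha chain of the embryonic laminin-111, was at 158, 172 and 136 in WT-GR vehicle and rose to 215, 232 and 242 with Dex, a log2 change of 0.57 ± 0.12 (limma adjusted p = 0.0031). In S134A-GR cells it was at 590.0, 565 and 703 in vehicle and 683, 657 and 688 with Dex, groups that overlapped, with a log2 change of 0.13 (limma adjusted p = 0.566). The lowest S134A-GR library was more than the highest WT-GR library in each treatment, and the genotype difference was 1.99 untreated and 1.55 with Dex (limma adjusted p = 2.32e-08 and 2.35e-07). LAMB2, the beta chain of laminins found in vessels, muscle and glomerulus, was at 34388, 33983 and 32112 in untreated and 42412, 41260.0 and 37993 in Dex-treated WT-GR libraries. In S134A-GR cells LAMB2 was at 48846, 48220.1 and 51418 untreated and 51894, 55321 and 57906 with Dex. Dex libraries lay above vehicle libraries in both genotypes, yet the change passed the threshold in WT-GR cells (0.28, limma adjusted p = 0.00189) and not in S134A-GR cells (0.15, limma adjusted p = 0.0731). Without S134A-GR Dex replicate 1 the latter was 0.19 and without WT-GR Dex replicate 3 0.15, both past the threshold (limma adjusted p = 0.0359 and 0.0355). With all libraries kept, DESeq2 also called it, at 0.16 (DESeq2 adjusted p = 0.0439).

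The alpha chains of the wider laminin family moved apart between the genotypes. LAMA4, the alpha chain of endothelial and mesenchymal laminin-411, was at 267, 296 and 239 without Dex and 181, 156 and 297 after Dex in WT-GR cells. For LAMA4 the S134A-GR libraries were at 65.0, 100.4 and 60.6 without Dex and 50.7, 63.0 and 67.8 after it. All S134A-GR values were below all WT-GR values, with log2 differences of -1.85 and -1.74 (limma adjusted p = 4.01e-05 and 6.94e-05). Its change with Dex in WT-GR cells, -0.39, was called only without Dex replicate 3 among the single libraries left out, at -0.66 (limma adjusted p = 0.0359). LAMA5, the alpha chain of the main epithelial laminins, was lower in S134A-GR cells, at 23390 ± 1903 against 38880 ± 4501 in vehicle (SD, n = 3; -0.73, limma adjusted p = 4.46e-05). Per length, LAMA5 exceeded LAMA3 by a ratio of 9.28 ± 0.542 in WT-GR vehicle and 3.05 ± 0.0491 in S134A-GR vehicle, and LAMA1 by 213 ± 25.5 and 32.0 ± 1.21. LAMB1, a widely used beta chain, was higher in S134A-GR cells by 0.48 untreated and 0.41 with Dex (limma adjusted p = 6.03e-05 and 0.000223).

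LAMC1, the gamma chain shared by most laminins, was at 31930 ± 6026 in WT-GR vehicle and 26520 ± 1331 in S134A-GR vehicle, a difference of -0.25 that did not pass (limma adjusted p = 0.0811) but did without WT-GR vehicle replicate 3, at -0.39 (limma adjusted p = 0.00547). With all libraries kept, DESeq2 called this difference, at -0.27 (DESeq2 adjusted p = 0.031). LAMA2, the alpha chain of muscle laminin-211, showed no difference past the threshold, with group means of 110 to 121 over the 4 groups. LAMB4 and LAMC3 never exceeded 23.6 and 14.1. With Dex, LAMB4 was higher in S134A-GR cells (2.19, limma adjusted p = 0.0258), a call lost without any 1 of the S134A-GR Dex libraries (2.12 to 2.24) and with a pseudocount of 0.1; without WT-GR Dex replicates 2 and 3 the difference was 0.79. LAMC3 was at 4.22 ± 5.59 in WT-GR vehicle and 11.4 ± 3.12 in S134A-GR vehicle, which was called without WT-GR vehicle replicate 2 or WT-GR Dex replicate 3 (limma adjusted p = 0.00485 and 0.0486) and not otherwise among the single libraries left out.

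**Figure D3:**
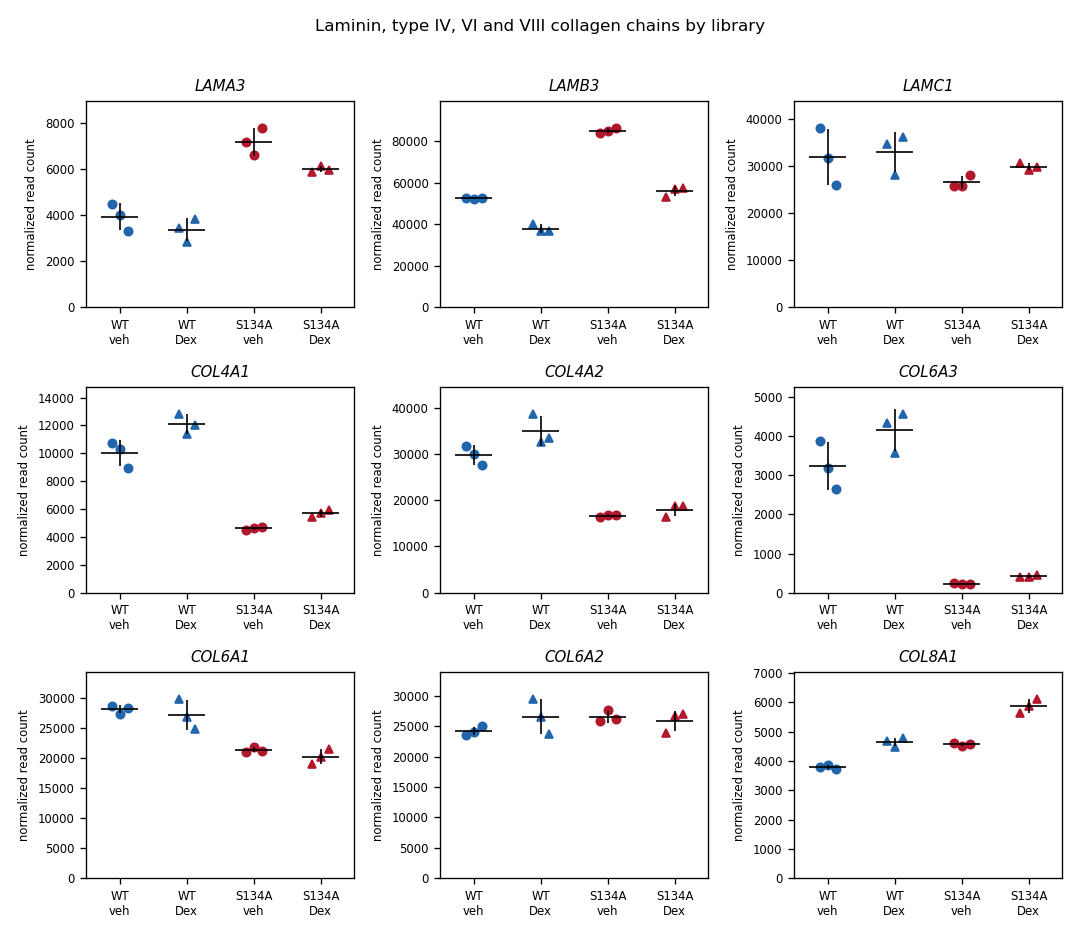
Normalized read counts by library (points, 3 per group) with mean (horizontal line) and SD (vertical line) for LAMA3, LAMB3, LAMC1, COL4A1, COL4A2, COL8A1 and the type VI chains, in WT-GR (blue) and S134A-GR (red) cells with vehicle (circles) or Dex (triangles). LAMB3 falls with Dex in both genotypes, COL4A1 and COL8A1 rise, and COL6A3 is below 500 in every S134A-GR library.

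The type IV chains COL4A1 and COL4A2, which form the common trimer of basement membranes, are neighbors transcribed away from each other on chromosome 13. COL4A1 was at 10741, 10318 and 8967 in untreated and 12848, 11405 and 11996 in Dex-treated WT-GR libraries. In S134A-GR cells COL4A1 was at 4492, 4612 and 4743 untreated and 5459.7, 5719 and 5948 with Dex. It rose with Dex in both genotypes without overlap (0.27 ± 0.07 and 0.31 ± 0.07, limma adjusted p = 0.00788 and 0.0052) and was lower in S134A-GR cells, with log2 differences of -1.11 untreated and -1.08 with Dex (limma adjusted p = 2.45e-08 and 3.47e-08). COL4A2 was at 31633, 30013 and 27479.9 without Dex and 38688, 32562 and 33506 after Dex in WT-GR cells. For COL4A2 the S134A-GR libraries were at 16257, 16812 and 16749 without Dex and 16395, 18629 and 18766 after it. Its genotype difference was also without overlap, at -0.84 and -0.96 (limma adjusted p = 6.83e-07 and 2.12e-07). Its rise with Dex in WT-GR cells (0.23, limma adjusted p = 0.0282) was less secure: it was 0.16 without Dex replicate 1, 0.18 without vehicle replicate 3 and 0.24 without vehicle replicate 2, none past the threshold. With scaling by library size only it was 0.17 (edgeR adjusted p = 0.0654), and in S134A-GR cells it was 0.11 (limma adjusted p = 0.404).

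The 126 bases between these genes' annotated starts are shown because the chains on either side moved in the same direction between the genotypes. They are chr13:110307158-110307283, from RefSeq on GRCh38.p14, read 5′ to 3′ on the plus strand with COL4A1 leaving to the left and COL4A2 to the right, with the GC box GGGCGG and the CCAAT box in capitals.
COL4A1 to COL4A2: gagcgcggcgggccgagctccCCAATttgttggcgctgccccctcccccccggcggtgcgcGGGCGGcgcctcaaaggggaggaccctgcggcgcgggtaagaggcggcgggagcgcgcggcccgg
A GC box was found in 45.0% of all windows and in 25 of the 36 windows of the chains, and a CCAAT box in 34.6% and in 6 of 36. In GENCODE 29 the gene models are longer and overlap here (COL4A1 at chromosome 13, 110148963 to 110307233, COL4A2 from 110305812), and since strand use in counting is not given in the sources used here, reads in the overlap could belong to either gene. Per length of the longest coding transcript COL4A2 stood 3.03 ± 0.0831 times above COL4A1 in WT-GR vehicle and 3.67 ± 0.0607 times in S134A-GR vehicle; over the length of all annotated exons these ratios were 1.73 ± 0.0473 and 2.09 ± 0.0345.

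Of the minor type IV chains, COL4A5 and COL4A4 were lower in S134A-GR cells. COL4A5, the X-linked chain of kidney basement membranes (chromosome X, 108439844 to 108697545), was at 16.3, 20.1 and 17.9 in WT-GR vehicle and 6.83, 37.9 and 21.4 in WT-GR Dex, and at 0 in all 6 S134A-GR libraries. Against the value of 3 reads over the group, it was at least 19.1-fold lower in S134A-GR vehicle and at least 23.2-fold lower in S134A-GR Dex, from 46 and 63 reads in all in the WT-GR groups (limma adjusted p = 0.000154 and 0.000166). COL4A5 reached 10 only in WT-GR libraries. It was tested only through the genotype where it is high, and these p-values depend on that choice. COL4A6, its partner across a start region of 379 bases, was under the minimum with at most 8.42. COL4A4 was at 184, 165 and 163 in untreated and 227, 133.8 and 250.2 in Dex-treated WT-GR libraries. In S134A-GR cells COL4A4 was at 78.2, 71.0 and 71.3 untreated and 96.2, 109 and 130.0 with Dex. It was lower in S134A-GR cells without overlap, with log2 differences of -1.20 and -0.82 (limma adjusted p = 0.000373 and 0.006), though the latter call was lost when libraries were weighted (-0.45, limma adjusted p = 0.0737). Its change with Dex in S134A-GR cells, 0.59 without overlap, was called only without WT-GR Dex replicate 2 among the single libraries left out (limma adjusted p = 0.0158 against 0.0852). COL4A3, whose start lies 135 bases from that of COL4A4, was at 10.2 to 52.9 and differed in no comparison past the threshold.

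Type VIII collagen forms a hexagonal lattice under endothelia and in repairing tissue. COL8A1 was at 3801, 3851 and 3722 without Dex and 4689.7, 4496 and 4769.9 after Dex in WT-GR cells. For COL8A1 the S134A-GR libraries were at 4605, 4502 and 4589.8 without Dex and 5641, 5884 and 6109 after it. Dex raised it without overlap in both genotypes, by 0.29 ± 0.05 and 0.36 ± 0.05 (limma adjusted p = 0.000312 and 4.94e-05), and it was higher in S134A-GR cells by 0.27 and 0.34 (limma adjusted p = 0.000245 and 3.86e-05). COL8A2, its partner chain, was at 10.6 to 51.9 and passed no test.

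Type VI collagen is assembled from COL6A1, COL6A2 and 1 further chain, most often COL6A3, into beaded filaments around cells. COL6A3 was at 3879.6, 3189 and 2661 in untreated and 4336, 3569 and 4581 in Dex-treated WT-GR libraries. In S134A-GR cells COL6A3 was at 243, 217 and 225 untreated and 392, 404 and 459.6 with Dex. The highest S134A-GR library lay far under the lowest WT-GR library, and the log2 difference was -3.81 ± 0.13 in vehicle and -3.31 ± 0.13 with Dex (limma adjusted p = 1.55e-10 and 5.7e-10). In S134A-GR cells Dex raised COL6A3 by 0.87 ± 0.13, the largest change with Dex among the chains that passed in either genotype, with no overlap (limma adjusted p = 0.00024). In WT-GR cells the groups overlapped and the change was 0.37 (limma adjusted p = 0.0467), a call lost without any 1 of 10 libraries. Its values without a WT-GR library were 0.23 without vehicle replicate 3, 0.37 without vehicle replicate 2, 0.34 without Dex replicate 1 and 0.30 without Dex replicate 3, and without any of the 6 S134A-GR libraries it was 0.37 (limma adjusted p = 0.0506 to 0.0606).

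The other type VI chains differed far less. COL6A1 was lower in S134A-GR cells, at 21380 ± 413 against 28150 ± 642 in vehicle (-0.40, limma adjusted p = 0.000113), and COL6A2 was at 26540 ± 969 against 24180 ± 706 (0.13, limma adjusted p = 0.126; called at 0.21 with scaling by library size only). Neither passed the threshold for Dex, although the log2 change of COL6A2 in WT-GR cells was 0.21 and called without Dex replicate 3 (limma adjusted p = 0.0167). Per length, COL6A1 stood 22.5 ± 4.18 times above COL6A3 in WT-GR vehicle and 238 ± 17.8 times in S134A-GR vehicle, and 16.8 ± 2.75 and 123 ± 3.99 times in Dex. COL6A1 and COL6A2, which lie in tandem on chromosome 21 with 93063 bases between them, had a ratio of 0.951 ± 0.0358 in WT-GR vehicle and 0.658 ± 0.0112 in S134A-GR vehicle. Over the length of all annotated exons these ratios were 1.21 ± 0.0456 and 0.837 ± 0.0142, so that which chain was higher in WT-GR vehicle depends on the length used.

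**Figure D4:**
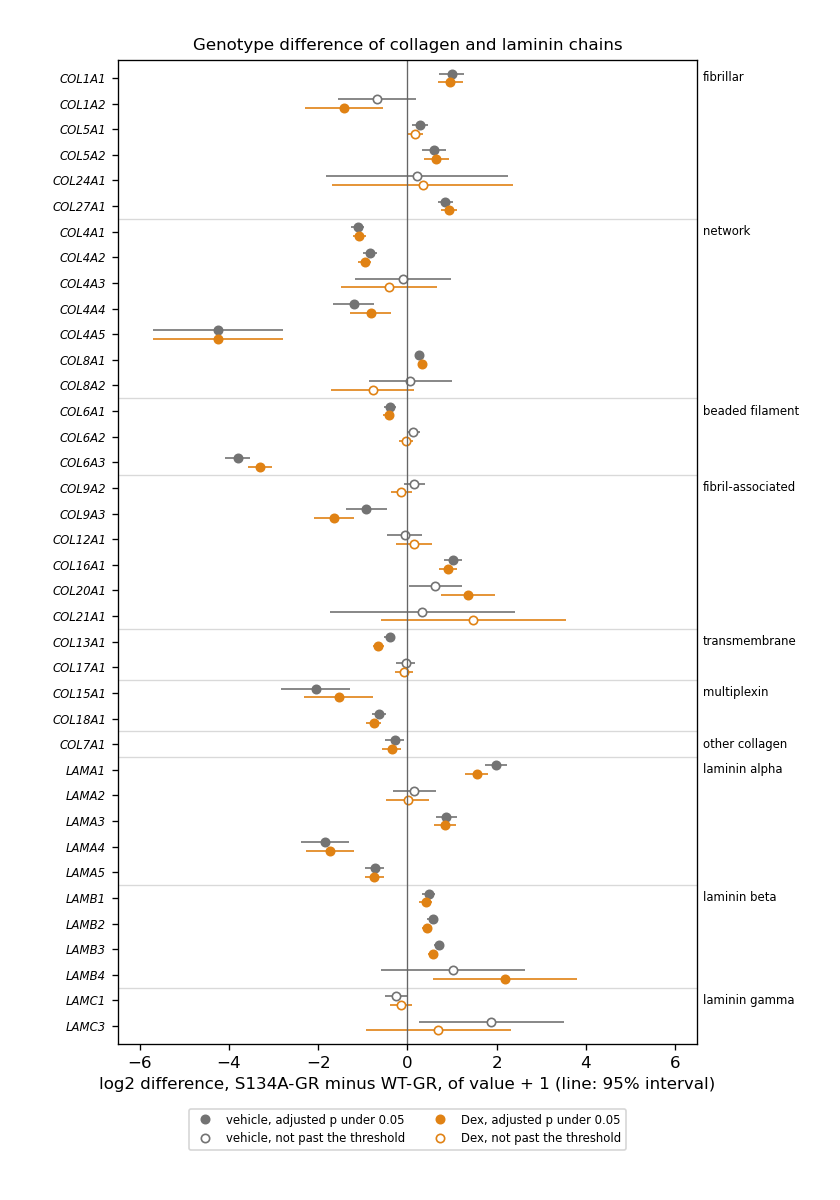
Log2 difference between S134A-GR and WT-GR cells of value + 1, with its 95% interval, for each chain in vehicle (grey) and Dex (orange); filled points passed an adjusted p under 0.05 by limma. COL4A5, COL6A3, COL15A1 and LAMA4 lie farthest to the left and LAMA1 is the highest in vehicle; the plotted value of COL4A5 depends on the added 1, since S134A-GR was at 0.

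Among the fibrillar chains COL27A1, a minor fibrillar collagen of cartilage, fell with Dex in both genotypes. It was at 2721, 2949 and 3074 in untreated and 2124, 2019 and 1729 in Dex-treated WT-GR libraries. In S134A-GR cells COL27A1 was at 5189, 4979 and 5606 untreated and 3457, 3817 and 3911 with Dex. Dex and vehicle libraries did not overlap (-0.58 ± 0.08 and -0.50 ± 0.08, limma adjusted p = 0.000144 and 0.000568), and S134A-GR cells were higher by 0.85 and 0.93 (limma adjusted p = 1.74e-06 and 7.89e-07). COL1A1, the main chain of type I collagen, was at 1380.1, 1015 and 1063 without Dex and 1147, 814 and 832 after Dex in WT-GR cells. For COL1A1 the S134A-GR libraries were at 2331, 2112 and 2369.7 without Dex and 1714, 1827 and 1834 after it. It was higher in S134A-GR cells without overlap (0.99 and 0.96, limma adjusted p = 3.41e-05 and 4.59e-05). With Dex its log2 change was -0.31 and -0.34, not past the threshold although the S134A-GR groups did not overlap (limma adjusted p = 0.0917 and 0.107), and without WT-GR Dex replicate 1 both were called, at -0.47 and -0.34. With all libraries kept, DESeq2 called the change in S134A-GR cells (DESeq2 adjusted p = 0.039). Scaling by library size only gave a call in WT-GR cells (-0.38, edgeR adjusted p = 0.0375). COL1A2, the partner chain, was at 4.23 to 23.9, and COL1A1 exceeded it per length 48.6 ± 17.04 times in WT-GR vehicle and 161 ± 66.5 times in S134A-GR vehicle. COL1A2 was lower in S134A-GR cells in Dex (-1.43, limma adjusted p = 0.0103), in the direction opposite to COL1A1.

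Type V collagen nucleates and trims type I fibers. COL5A1 was higher in S134A-GR vehicle, at 30930 ± 853 against 25380 ± 2300 (0.29, limma adjusted p = 0.0103), and in Dex its difference was 0.18 (limma adjusted p = 0.0939), which was called without WT-GR Dex replicate 1 (0.26) or S134A-GR Dex replicate 1 (0.25). COL5A2 was higher by 0.60 and 0.65 (limma adjusted p = 0.00163 and 0.000966). Of the 6 fibrillar chains, 4 were higher and none lower in S134A-GR vehicle (23.8% and 26.7% of all genes), and 3 were higher and 1 lower in Dex (23.4% and 26.3%). COL24A1, at 0 to 22.3, passed no test with all libraries kept.

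**Figure D5:**
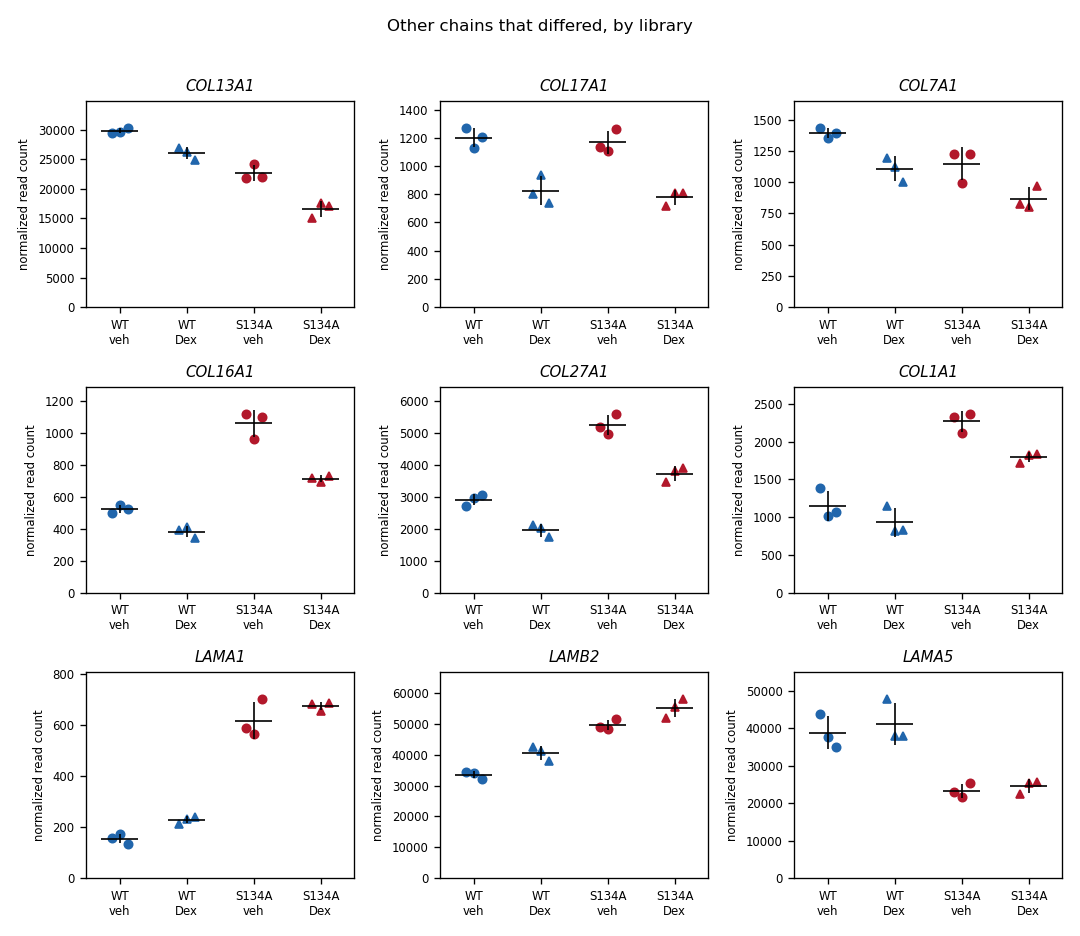
Normalized read counts by library (points, 3 per group) with mean (horizontal line) and SD (vertical line) for 9 further chains, in WT-GR (blue) and S134A-GR (red) cells with vehicle (circles) or Dex (triangles). COL16A1 and COL27A1 fall with Dex and are higher in S134A-GR cells, COL13A1 falls and is lower in S134A-GR cells, and LAMA1 rises with genotype.

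The fibril-associated collagens, which coat fibers and bridge them to other matrix, were mixed. COL16A1 was at 500.2, 547 and 521 in untreated and 389, 412 and 343 in Dex-treated WT-GR libraries. In S134A-GR cells COL16A1 was at 1121, 964 and 1098 untreated and 719, 690.5 and 732 with Dex. All Dex libraries were below their vehicle group (-0.46 ± 0.09 and -0.57 ± 0.09, limma adjusted p = 0.00252 and 0.000541) and all S134A-GR libraries above WT-GR (1.02 and 0.91, limma adjusted p = 1.13e-06 and 3.38e-06). COL9A2, a cartilage type IX chain, was at 885, 979 and 1012 in untreated and 1091, 869 and 781 in Dex-treated WT-GR libraries, which overlapped, and at 1036, 1149.5 and 1023 and 775, 861 and 841 in those of S134A-GR cells, which did not. Its fall in S134A-GR cells (-0.37, limma adjusted p = 0.034) was lost without any 1 of the 6 S134A-GR libraries, at -0.40 without vehicle replicate 3 to -0.32 without vehicle replicate 2, and without WT-GR vehicle replicate 2 (limma adjusted p = 0.0505, with the value unchanged). COL9A3, another type IX chain, was at 104, 105 and 137 without Dex and 157, 137 and 130.2 after Dex in WT-GR cells. For COL9A3 the S134A-GR libraries were at 58.4, 75.0 and 49.0 without Dex and 37.0, 50.8 and 46.1 after it. S134A-GR libraries were all below WT-GR libraries (-0.92 and -1.65, limma adjusted p = 0.00252 and 2.68e-05).

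COL12A1, a long chain that binds type I fibers, passed no test with all libraries fitted at once, with 95% intervals for Dex of -0.38 to 0.42 for WT-GR and -0.17 to 0.63 for S134A-GR cells. In S134A-GR cells, however, all Dex libraries lay above the vehicle libraries. Fitted with only these groups, that change was called (0.23, limma adjusted p = 0.0289). Among the WT-GR vehicle libraries COL12A1 spread widely, at 15145, 10532 and 8020.3. The same order of replicates was seen in other long genes: in WT-GR vehicle the median log2 deviation from the group mean of 1155 genes with transcripts of 8 kb or more was 0.14, 0.00 and -0.14 in replicates 1, 2 and 3, and that of the 6 chains of such length with a mean of at least 1000 (COL5A1, COL6A3, COL7A1, COL12A1, LAMA3, LAMA5) was 0.19, -0.03 and -0.19. In WT-GR Dex the median of the long genes was 0.01, -0.09 and 0.10, and in the S134A-GR groups it stayed between -0.02 and 0.04. COL20A1, at 22.0 to 103, was higher in S134A-GR cells in Dex (1.36, limma adjusted p = 0.00114). Its log2 change with Dex in WT-GR cells was -0.64 (limma adjusted p = 0.101) and -0.88 without Dex replicate 1, and its genotype difference in vehicle, 0.62, passed without WT-GR Dex replicate 1 or 2 (limma adjusted p = 0.0494 and 0.0465). COL21A1, at 0 to 16.0, passed no test, and its genotype difference in Dex was 2.48 and called without WT-GR Dex replicate 2.

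The transmembrane collagens fell with Dex. COL13A1, found at adhesion sites, was at 29523, 29667 and 30331 in untreated and 26953, 26219 and 24954 in Dex-treated WT-GR libraries. In S134A-GR cells COL13A1 was at 21840, 24239 and 21977 untreated and 15052, 17585 and 17109 with Dex. The 4 groups did not overlap, with changes of -0.20 ± 0.06 and -0.45 ± 0.06 with Dex (limma adjusted p = 0.0249 and 7.98e-05) and genotype differences of -0.40 and -0.65 (limma adjusted p = 9.28e-05 and 1.23e-06). The call in WT-GR cells was lost without vehicle replicate 1 (-0.20), 2 (-0.20) or 3 (-0.19) and without Dex replicate 2 (-0.20) or 3 (-0.17), with limma adjusted p from 0.0521 to 0.0652. COL17A1, the hemidesmosome collagen that binds laminin-332, was at 1271, 1131 and 1206 without Dex and 804, 936 and 737 after Dex in WT-GR cells. For COL17A1 the S134A-GR libraries were at 1136, 1109 and 1262 without Dex and 715, 810.4 and 808 after it. It fell without overlap in both genotypes, with log2 changes of -0.55 ± 0.10 and -0.59 ± 0.10 (limma adjusted p = 0.000918 and 0.000583), and the genotypes overlapped in both treatments (95% intervals of the difference -0.25 to 0.17 and -0.29 to 0.12).

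COL7A1, the anchoring fibril collagen that ties laminin-332 to the dermis, was at 1434, 1355 and 1394 in untreated and 1195, 1125 and 999 in Dex-treated WT-GR libraries. In S134A-GR cells COL7A1 was at 1226, 995 and 1224 untreated and 827, 803 and 971 with Dex. It fell with Dex in both genotypes without overlap (-0.34 and -0.40, limma adjusted p = 0.0242 and 0.0135), and was lower in S134A-GR cells (-0.29 and -0.35, limma adjusted p = 0.0302 and 0.0105). These calls were close to the threshold. In WT-GR cells the fall was not called without vehicle replicate 1 (-0.32), 2 (-0.36) or 3 (-0.34) or Dex replicate 3 (-0.27). In S134A-GR cells it was not called without vehicle replicate 1 (-0.35) or 3 (-0.35) or Dex replicate 1 (-0.37) or 2 (-0.35). The genotype difference in vehicle was lost without any 1 of the 3 WT-GR vehicle libraries (-0.31 to -0.27) or S134A-GR vehicle replicate 2 (-0.19), and with scaling by library size only in vehicle (-0.20) and in Dex (-0.23). LAMB3, COL17A1 and COL7A1, which meet at the hemidesmosome, thus each fell with Dex in both genotypes. This does not hold for every gene of that structure. LAMA3, of the same trimer as LAMB3, and ITGB4, the hemidesmosome integrin chain, passed the threshold for Dex in neither genotype.

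The multiplexins are basement membrane collagens that carry heparan or chondroitin sulfate. COL15A1 was at 106, 83.5 and 46.3 without Dex and 32.4, 55.9 and 51.9 after Dex in WT-GR cells. For COL15A1 the S134A-GR libraries were at 17.9, 22.3 and 12.5 without Dex and 12.7, 17.5 and 15.1 after it. S134A-GR libraries were lower without overlap, with log2 differences of -2.06 and -1.54 (limma adjusted p = 0.000318 and 0.00282), and in Dex the call was lost with WT-GR Dex replicates 2 and 3 both left out (-1.07). COL18A1, the source of endostatin, was lower too (-0.64 and -0.76), at 7748 ± 312 against 12050 ± 241 in vehicle (limma adjusted p = 1.38e-05 and 3.11e-06). Its change with Dex in WT-GR cells was 0.15 (limma adjusted p = 0.159), and 0.25 and called without Dex replicate 3 (limma adjusted p = 0.00597).

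Whether the response to Dex itself differed between the genotypes was tested by the difference of the log2 changes. By limma 0 of 39 chains passed, against 0.414% of all genes. With edgeR (TMM) and with DESeq2 on the recovered reads 0 were called as well, although DESeq2 gave no adjusted p for 11 of the 39. An unadjusted limma p under 0.05 was found for 4 of the 39 chains, beside 2790 of all 15957 genes. Those 4 were COL13A1 (-0.26, 95% interval -0.44 to -0.08), COL6A3 (0.50, 0.11 to 0.89), LAMA1 (-0.43, -0.79 to -0.08) and COL9A3 (-0.73, -1.37 to -0.08), with limma adjusted p of 0.189, 0.214, 0.229 and 0.248. For LAMB3 the difference was -0.13 (-0.27 to 0.00), and for COL4A1 0.03 (-0.17 to 0.23). The chains called in 1 genotype only, COL4A2, LAMA1 and LAMB2 in WT-GR and COL9A2 in S134A-GR cells, were therefore not shown to respond differently.

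Genes that act on the chains were counted from lists. Of 27 tested genes of collagen modification, folding, export and processing, Dex raised 8 and lowered 6 in WT-GR cells, and raised none and lowered 2 in S134A-GR cells, beside 27.9% and 15.7% of all genes called in these comparisons. In WT-GR cells the procollagen protease ADAMTS14 (1.33), the prolyl hydroxylase P3H3 (0.34) and the lysyl hydroxylase PLOD3 (0.27) rose most, and the prolyl hydroxylase subunit P4HA3 (-2.43, from 13.04, 4.23 and 8.42 to 3.41, 0 and 0), the galactosyltransferase COLGALT2 (-0.48) and the lysyl hydroxylase PLOD2 (-0.32) fell most, all log2 changes (limma adjusted p = 0.000125, 0.00858, 0.00487, 0.0218, 0.000592 and 0.00168). In S134A-GR cells P3H2 (-0.31) and COLGALT2 (-0.30) fell (limma adjusted p = 0.000112 and 0.0196). For the difference of the responses 0 of 27 passed by limma, so the smaller count in S134A-GR cells was not shown to be a difference. An unadjusted limma p under 0.05 was found for 9 of the 27, beside 2790 of all 15957 genes.

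Between the genotypes 11 of these 27 were higher and 7 lower in S134A-GR vehicle, and 10 and 10 in Dex (50.5% and 49.7% of all genes called). FKBP10, a chaperone of procollagen, stood at 3225, 3141 and 3175 in WT-GR vehicle and 13556, 13007 and 13089 in S134A-GR vehicle, a log2 difference of 2.05 without overlap (limma adjusted p = 1.55e-10). The prolyl hydroxylase network genes P3H4 (0.61) and P3H3 (0.53) followed, and the protease TLL2, PLOD2 (-1.05) and COLGALT2 (-0.73) were lowest in vehicle. In Dex the highest were P4HA3 (2.96), FKBP10 (2.01) and P3H4 (0.44), and the lowest TLL2 (-1.64), PLOD2 (-0.81) and the procollagen chaperone SERPINH1 (-0.70). The sizes for P4HA3 and TLL2 rest on few reads. P4HA3 was at 3.41, 0 and 0 in WT-GR Dex and 11.6, 14.9 and 9.42 in S134A-GR Dex, and TLL2 never exceeded 37.9.

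Of 13 tested partners in the basement membrane, Dex raised 4 and lowered 1 in WT-GR cells and raised 4 and lowered 3 in S134A-GR cells (27.9% and 15.7% of all genes called). The fibulin FBLN1 rose by 1.03 and 0.76, its relative EFEMP1 by 0.69 and 0.52, and the laminin-binding netrin NTN4 by 0.34 and 0.36 (limma adjusted p at most 0.000436). SPARC, which binds type IV collagen, fell by 0.11 and 0.19 on the log2 scale (limma adjusted p = 0.036 and 0.00265), and in S134A-GR cells the proteoglycan AGRN (-0.29) fell too, as did SMOC1, from 3.77, 4.05 and 4.45 to 0 in all 3 libraries (limma adjusted p = 0.0148 and 0.0428). Between the genotypes 6 of 13 were lower and 1 higher in S134A-GR vehicle, and 8 lower and 1 higher in Dex (50.5% and 49.7% of all genes called). PXDN, the peroxidasin that cross-links type IV collagen, was at 88759.7, 84362 and 78169 in WT-GR vehicle and 35682, 36687 and 36505 in S134A-GR vehicle (-1.20, limma adjusted p = 1.6e-09), with TINAGL1 (-0.85) and FREM2 (-0.80) next lowest and FRAS1 (0.62) higher. In Dex SMOC1 (at 0 in S134A-GR and 8.54, 2.00 and 20.3 in WT-GR libraries), PXDN (-1.24) and FBLN2 (-0.89) were lowest and NID2 (0.84) higher. SMOC1 was tested only through the WT-GR libraries, where it is high, and its genotype call depends on that choice.

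Of 15 receptors for collagens and laminins, Dex raised 3 and lowered 2 in WT-GR cells and raised 1 and lowered 2 in S134A-GR cells, shares near the 27.9% and 15.7% of all genes. ITGA10, a collagen-binding integrin chain, was at 715, 705 and 747 in WT-GR vehicle and 3107, 3388 and 2976 in WT-GR Dex, and at 903, 813 and 976 and 4776, 4286 and 4509 in S134A-GR cells. No library overlapped, with log2 changes of 2.12 and 2.34 (limma adjusted p = 1.99e-10 and 6.84e-11), larger than those of any called chain. ITGA2, the main collagen receptor chain of epithelia and platelets, fell by 0.93 and 0.85 on the log2 scale (limma adjusted p = 5.54e-05 and 0.000137). BCAM (0.27) and CD151 (0.19) rose and the laminin receptor chain ITGA6 (-0.27) fell in WT-GR cells, and ITGA3 (-0.23) fell in S134A-GR cells (limma adjusted p = 0.0256, 0.0388, 0.0149 and 0.0147). Between the genotypes 3 were higher and 5 lower in S134A-GR vehicle, and 3 and 7 in Dex (50.5% and 49.7% of all genes called). The laminin receptor chain ITGA7 (2.82 and 2.41), ITGA10 (0.31 and 0.52) and ITGB1 (0.21 and 0.36) were higher, and the collagen receptor chain ITGA11 (-2.47 and -2.88) and ITGB4, the hemidesmosome chain that binds laminin-332 (-0.91 and -1.27), were lower, with ITGA1 (-0.42) in vehicle and ITGA3 (-0.50) in Dex.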

How the data were processed

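Gene expression was measured by poly(A) RNA sequencing (TruSeq, 75-base pairs) in 12 libraries, per the labels' protocols. FastQC 0.11.7, featureCounts of Subread, DESeq2 1.22.2 and hg38 are named in the submitters' processing notes, and for the aligner and annotation no name is given in the sources used here. The deposited files hold 1 signal per gene, a normalized read count (count over a size factor), and whole reads were recovered for 100% of values within 0.01. Among counts of 1 to 20 reads, 58.2 to 67.5% were even. Dex files list 26485 names for 19907 values; names were taken from the vehicle files by line (r = 0.982 to 0.989 with the vehicle mean, against -0.01 to 0.00 by name), and all Dex values rest on this.

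In R 4.3.3, log2(value + 1) of all 12 libraries was fitted at once by limma 3.58.1 (trended prior variance), keeping genes that reached 10 in 3 libraries, two-sided, with Benjamini-Hochberg adjustment over 15957 genes and a threshold of 0.05. A fold on this scale understates changes of low genes. The planned test for raw counts, edgeR's, became an alternative: edgeR 4.0.16 with TMM called 4440, 2528, 61, 8021 and 7855 genes for Dex in WT-GR, Dex in S134A-GR, the difference of responses, and genotype in vehicle and in Dex, against 4455, 2513, 66, 8061 and 7931 by limma. DESeq2 1.42.0, other pseudocounts, no filter, other scaling, library weights, fewer libraries and a replicate block were also tried.

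The chains are named in their classes, except 1 that is counted but not reported here; values of every library are given for chains called for Dex or its difference, the 12 largest called genotype differences in vehicle, LAMA3, LAMB3, COL4A1, COL4A2 and COL4A5. COL12A1 and the deviations by length were added after values were seen. From each list up to 3 called genes per direction are named. The chains and lists were chosen with earlier results of these data known. Lengths are from GENCODE 29.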

Additional observations from a re-analysis of the deposited data

How the results depend on the processing

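The counts of called chains stayed within 1.5 times of those reported under the alternatives tried, with these exceptions. For Dex in S134A-GR cells 16 chains were called when only the groups compared were fitted and 17 with library weights, against 10. For the difference of responses 4 were called with library weights (COL6A3, COL20A1, COL13A1 and LAMB4) and 3 without WT-GR Dex replicates 2 and 3 (COL6A2, COL9A2 and LAMB3), against 0; over all genes these settings called 2854 and 2550, and DESeq2 504, against 66. Leaving out 1 library gave 8 to 13 called chains for Dex in WT-GR cells, 8 to 11 in S134A-GR cells, 0 to 0 for the difference, and 24 to 27 and 26 to 28 for genotype in vehicle and in Dex. Over all genes, however, leaving out WT-GR Dex replicate 3 alone raised the calls for the difference from 66 to 1604. Where this left 2 libraries in a group, the spread was pooled with the other groups. Over all chains, comparisons and 22 alternatives, 4100 values kept their side of the threshold, 77 gained a call, 59 lost one and 0 changed sign as called values. Changes of sign among values that were not called were not counted. In edgeR, scaling by library size only in place of TMM moved the median log2 difference of all genes for genotype in Dex from 0.01 to 0.11, and the share of calls that were higher from 55.2% to 32.4% for Dex in WT-GR cells, from 49% to 59.6% for genotype in vehicle and from 47% to 64.9% in Dex; by limma these shares were 49.7%, 47.2% and 47%.

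Replicate numbers are shared across groups, and no pairing by number was seen. Deviations from the group means correlated at r = -0.09 to 0.06 for the same number (18 pairs, none over 0.1) and -0.08 to 0.09 for other numbers. With 3 libraries a group such correlations cannot exclude a pairing or a batch, and replicate 1 had the lowest depth in both WT-GR groups. With a replicate block the called chains were 10 for Dex in WT-GR, 9 in S134A-GR, 0 for the difference, and 25 and 27 for genotype in vehicle and in Dex; COL4A2 and COL6A3 (Dex in WT-GR) and COL9A2 (Dex in S134A-GR) were lost, and over all genes the calls for the difference went from 66 to 25. DESeq2 gave no adjusted p for 4 chains for Dex in S134A-GR cells. The chains with few reads limit the precision: 8 of 39 (COL1A2, COL24A1, COL4A3, COL4A5, COL8A2, COL21A1, LAMB4 and LAMC3) never exceeded 52.9, and changes of 1 on the log2 scale lay within the intervals of most of them.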
